A study of Mus musculus with 18 samples.

Results

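Keratins of the mouse colon were followed by RNA-Seq in 10 genes. The simple keratins were Krt8, Krt18, Krt19 and Krt20, and the keratins of squamous or injured epithelium were Krt7, Krt13, Krt14, Krt17, Krt23 and Krt80. They are 10 of the 54 keratin genes among the 47729 genes counted. The 10 were chosen by symbol and on their measured levels in these same mice, so their own differences between groups are given as a description, without a test of the 10. The fit ran across all genes, so counts of calls among the 10 are given beside those over all genes, and nothing is read from them. Tests were made on the other 44 keratins and on listed genes of junctions, squamous differentiation and other cell types. The lists were chosen with earlier results of these data known, so their calls are not free of that choice.

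Keratins are intermediate filament proteins that assemble as pairs of a type I and a type II chain and carry the mechanical strength of epithelial cells. Krt8 (type II) with Krt18, Krt19 and Krt20 (type I) forms the filaments of simple columnar epithelium such as the colonic surface. Krt13 with Krt4 is the pair of the suprabasal layers of internal stratified epithelium, Krt14 with Krt5 that of basal keratinocytes, and Krt17 appears in skin appendages and in wounded epithelium. Krt7 is the type II keratin of ducts and transitional epithelium.

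Colon RNA came from 9 C57BL/6 mice, 3 in each group. Control WT mice (1 to 3) carried no transgene and were untreated by their treatment label. AOM-DSS WT mice (4 to 6) were given 10 mg/kg azoxymethane (AOM), a carcinogen, and 3 cycles of 2.5% dextran sulfate sodium (DSS), an agent that injures the colonic epithelium. AOM-DSS Claudin-2TG mice (7 to 9) had the same treatment and expressed claudin-2 from the villin promoter, which is active in intestinal epithelium. Untreated Claudin-2TG mice were not analysed here, and the ages were not given in the sources used here. Each library held 14142711 to 22262546 counts, for which 3 counts are 0.135 to 0.212 CPM (counts per 1000000 counts of the library). Cldn2 was at 208 to 248 CPM in AOM-DSS Claudin-2TG, 121 to 136 CPM in AOM-DSS WT and 191 to 258 CPM in Control WT mice, so it separated the transgenic mice from the treated WT mice but not from the controls. Xist, the transcript of the inactive X chromosome, stood at 214 CPM in Control WT mouse 1 and at 0.204 CPM or less in the other 8 mice, so sex differed within the control group. The epithelial markers Epcam, Cdh1 and Vil1 were at 597 CPM or more in every mouse. In bulk RNA, fewer cells of a type and less RNA per cell cannot be told apart.

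Simple keratins made up nearly all keratin RNA in each group. Compared per length, as RPKM, which is CPM per kilobase of transcript, Krt8 stood at 2821 ± 137 (SD, n = 3) and Krt19 at 2166 ± 144 in Control WT colon. Krt20 followed at 529 ± 32.9 RPKM and Krt18 at 447 ± 32.3 RPKM. Krt7 was at 30.6 ± 0.250 RPKM, Krt23 at 4.90 ± 0.387 RPKM and Krt17 at 2.30 ± 2.13 RPKM. Krt14 (0.788 ± 0.334 RPKM), Krt13 (0.292 ± 0.0560 RPKM) and Krt80 (0.212 ± 0.146 RPKM) were lowest. Krt13 and Krt80 did not differ beyond their spread, nor did Krt14 and Krt17. The Krt7 level depends on the length used: over the 4094 bases of its principal transcript, in place of the 7055 bases counted, the Control WT mean was 52.7 RPKM.

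The order shifted after AOM-DSS. In AOM-DSS WT mice Krt8 (3275 ± 422 RPKM) and Krt19 (2355 ± 400 RPKM) still led, with Krt18 (606 ± 73.0 RPKM) and Krt20 (573 ± 67.5 RPKM) within each other's spread. Krt7 was at 62.8 ± 14.1 RPKM, Krt23 at 31.5 ± 19.6 RPKM, Krt14 at 11.8 ± 4.56 RPKM and Krt13 at 7.96 ± 4.53 RPKM, so that the means of Krt13 and Krt14 now lay above that of Krt17 (2.57 ± 1.53 RPKM). In AOM-DSS Claudin-2TG mice Krt13 (0.304 ± 0.162 RPKM) lay within the spread of its control level, while Krt14 (1.57 ± 0.403 RPKM) lay above its control level.

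Krt8, the type II partner of the other simple keratins (chr15:101996711-102004342, GRCm38, minus strand), was at 4947, 4951 and 5376 CPM in Control WT mice. It was at 6751, 5719 and 5266 CPM in AOM-DSS WT mice and at 5740, 7472 and 7288 CPM in AOM-DSS Claudin-2TG mice. The 3 transgenic mice lay above all controls, while AOM-DSS WT mice overlapped both groups. The log2 fold change was 0.22 ± 0.14 (SE) for AOM-DSS WT against Control WT, 0.21 ± 0.16 for AOM-DSS Claudin-2TG against AOM-DSS WT and 0.43 ± 0.11 for AOM-DSS Claudin-2TG against Control WT. Of the 50-base stretches of the Krt8 transcript 29.7% also occur in other genes, most of them in the pseudogene Krt8-ps, which had 104 to 160 CPM, so reads may be split between these genes.

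Krt18, the type I partner of Krt8 (chr15:102028216-102032026, plus strand), was at 584, 620 and 674 CPM in Control WT, 958, 755 and 834 CPM in AOM-DSS WT and 657, 821 and 860 CPM in AOM-DSS Claudin-2TG mice. All AOM-DSS WT mice lay above the controls, and the transgenic mice overlapped both. Its log2 fold change was 0.44 ± 0.13 for AOM-DSS WT against Control WT and -0.12 ± 0.15 for AOM-DSS Claudin-2TG against AOM-DSS WT.

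Krt19, a type I keratin of simple and progenitor epithelium (chr11:100140810-100148665, minus strand), was at 3804, 3934 and 4317 CPM in Control WT, 5204, 4115 and 3788 CPM in AOM-DSS WT and 3912, 4938 and 5127 CPM in AOM-DSS Claudin-2TG mice. The 3 groups overlapped, and no log2 fold change was above 0.22. Krt20, a type I keratin of mature surface colonocytes (chr11:99428403-99438150, minus strand), was at 965, 1006 and 1090 CPM in Control WT, 1020, 1254 and 1037 CPM in AOM-DSS WT and 1120, 1175 and 1629 CPM in AOM-DSS Claudin-2TG mice. Transgenic mouse 9 was the highest of the 9, the 3 transgenic mice lay above all controls, and the treated WT mice overlapped both groups. The log2 fold changes were 0.12 ± 0.13, 0.24 ± 0.18 and 0.37 ± 0.14 for AOM-DSS WT against Control WT, AOM-DSS Claudin-2TG against AOM-DSS WT and AOM-DSS Claudin-2TG against Control WT.

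**Figure D1:**
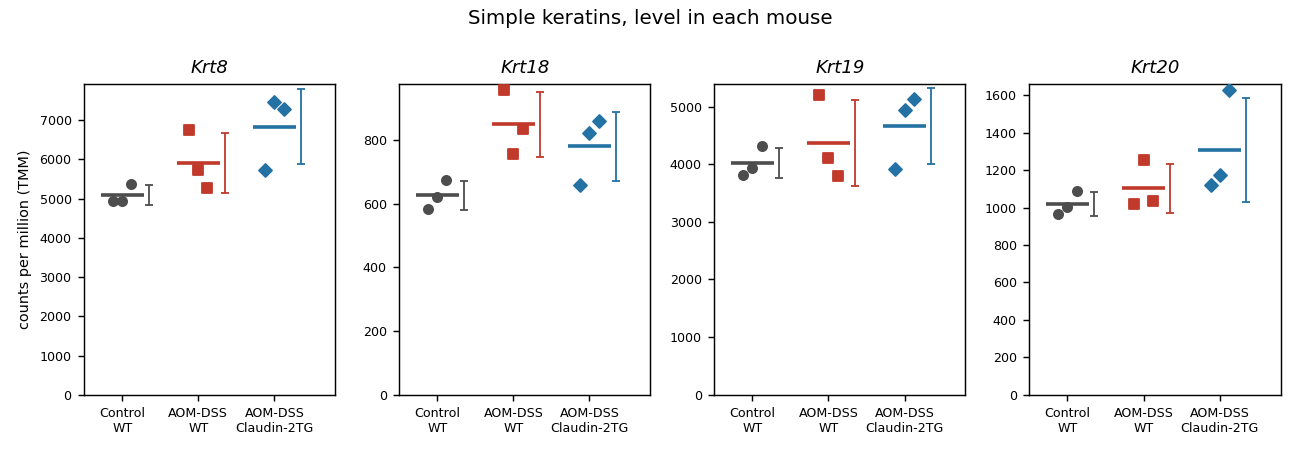
Level of the 4 simple keratins in each mouse, in CPM on TMM-scaled libraries (y axis, from 0), by group (x axis, 3 mice each). Points are mice, horizontal lines are group means and bars to the right are ± 1 SD; Krt8 reached 5740 to 7472 CPM in AOM-DSS Claudin-2TG mice against 4947 to 5376 CPM in Control WT mice.

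Krt13, the suprabasal type I keratin of internal stratified epithelium (chr11:100117327-100121566, minus strand), was at 0.448, 0.501 and 0.645 CPM in Control WT mice and at 6.18, 14.6 and 22.7 CPM in AOM-DSS WT mice. It was at 0.483, 0.302 and 0.878 CPM in AOM-DSS Claudin-2TG mice. The treated WT mice lay above all other mice, and the transgenic mice overlapped the controls. The log2 fold change was 4.75 ± 0.53 for AOM-DSS WT against Control WT and -4.74 ± 0.60 for AOM-DSS Claudin-2TG against AOM-DSS WT, and the gene had too few counts to be fitted between the other pair of groups.

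Krt14, the type I keratin of basal keratinocytes (chr11:100203162-100207548, minus strand), was at 0.746, 1.90 and 1.50 CPM in Control WT, 12.5, 21.0 and 28.5 CPM in AOM-DSS WT and 3.52, 2.62 and 2.12 CPM in AOM-DSS Claudin-2TG mice. The 3 groups did not overlap, with the transgenic mice between the other groups. Its log2 fold changes were 3.90 ± 0.42 for AOM-DSS WT against Control WT, -2.91 ± 0.34 for AOM-DSS Claudin-2TG against AOM-DSS WT and 0.99 ± 0.35 for AOM-DSS Claudin-2TG against Control WT. Of its 50-base stretches 13.9% also occur in other genes, mainly Krt16 and Krt17. Krt5, the usual partner of Krt14, had at most 3 counts in any mouse.

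Krt23, a type I keratin of the colon and other gut epithelium (chr11:99477974-99493137, minus strand), was at 8.06, 7.96 and 6.96 CPM in Control WT, 22.5, 42.5 and 82.8 CPM in AOM-DSS WT and 16.2, 17.2 and 25.5 CPM in AOM-DSS Claudin-2TG mice. Both treated groups lay above the controls, and they overlapped each other through AOM-DSS WT mouse 4 and transgenic mouse 9. Its log2 fold changes were 2.69 ± 0.45, -1.33 ± 0.46 and 1.36 ± 0.19 for AOM-DSS WT against Control WT, AOM-DSS Claudin-2TG against AOM-DSS WT and AOM-DSS Claudin-2TG against Control WT. The second of these ran from -1.67 to -0.72 over 14 alternative settings.

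Krt7, the type II keratin of ductal epithelium (chr15:101411043-101430313, plus strand), was at 214, 216 and 217 CPM in Control WT, 363, 412 and 554 CPM in AOM-DSS WT and 208, 251 and 320 CPM in AOM-DSS Claudin-2TG mice. The treated WT mice were above all others, and the transgenic mice overlapped the controls. The log2 fold change was 1.05 ± 0.17 for AOM-DSS WT against Control WT and -0.77 ± 0.21 for AOM-DSS Claudin-2TG against AOM-DSS WT.

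Krt17, the wound-associated type I keratin (chr11:100256217-100261029, minus strand), was at 7.36, 1.35 and 1.98 CPM in Control WT, 3.58, 1.84 and 6.52 CPM in AOM-DSS WT and 0.552, 0.905 and 1.98 CPM in AOM-DSS Claudin-2TG mice. The highest value was that of Control WT mouse 1, the mouse with Xist, and all groups overlapped. Its log2 fold change for AOM-DSS WT against Control WT was 0.15 ± 0.70 with all mice, 1.24 without Control WT mouse 1 and -0.39 without AOM-DSS WT mouse 6, so 1 mouse set its size or sign. It was -1.79 ± 0.58 for AOM-DSS Claudin-2TG against AOM-DSS WT and -1.65 ± 0.78 for AOM-DSS Claudin-2TG against Control WT, the latter -0.56 without Control WT mouse 1. Krt80, an epithelial type II keratin (chr15:101349571-101370125, minus strand), had 23, 57 and 39 counts in all over Control WT, AOM-DSS WT and AOM-DSS Claudin-2TG mice, at most 1.27 CPM in a mouse, and the groups overlapped. Its log2 fold change for AOM-DSS WT against Control WT was 1.37 ± 0.61.

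**Figure D2:**
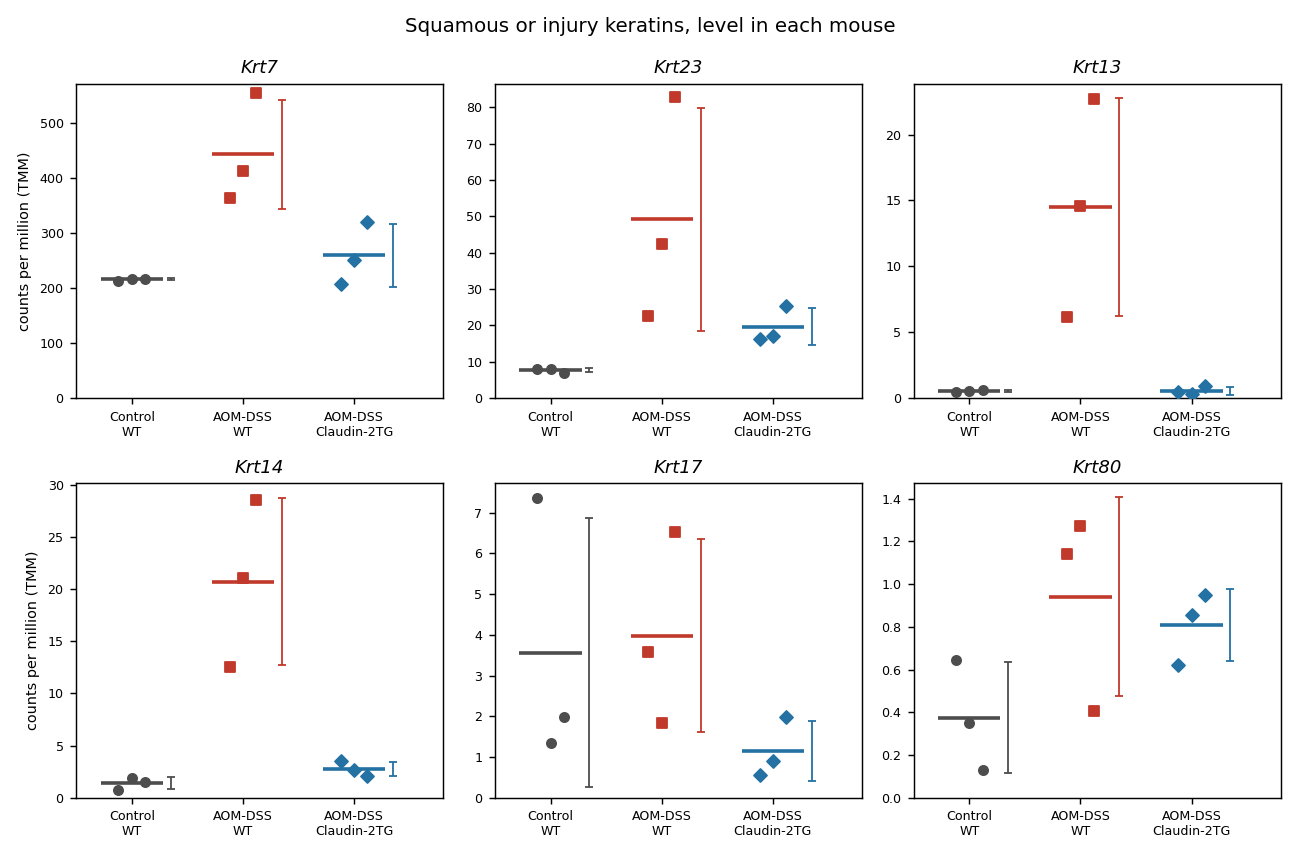
Level of the 6 keratins of squamous or injured epithelium in each mouse, in CPM on TMM-scaled libraries (y axis, from 0), by group (x axis, 3 mice each). Points are mice, horizontal lines are group means and bars are ± 1 SD; the 3 AOM-DSS WT mice sit above all others for Krt7, Krt13 and Krt14 and spread from 6.18 to 22.7 CPM for Krt13.

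A gene was called when the adjusted p of edgeR's quasi-likelihood test was under 0.05. In AOM-DSS WT against Control WT, 4 of the 10 keratins (Krt7, Krt13, Krt14 and Krt23) were called higher and 0 lower, where 8.04% of all genes tested were called higher and 6.92% lower. In AOM-DSS Claudin-2TG against AOM-DSS WT, 2 of 10 (Krt13 and Krt14) were called lower and 0 higher, where 7.35% of all genes were called lower and 2.19% higher. In AOM-DSS Claudin-2TG against Control WT, 2 of the 9 that could be fitted (Krt8 and Krt23) were called higher and 0 lower, against 3.92% higher and 6.07% lower over all genes. These 10 were chosen on the same contrasts, so the counts describe the choice and nothing is read from them. The same shares over all genes stand beside each count of listed genes below. The comparisons share mice: AOM-DSS WT enters 2 of them with opposite sign.

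AOM-DSS WT mouse 4 had the lowest level in its group for Krt7, Krt13, Krt14 and Krt23, and mouse 6 the highest. Without mouse 4 the log2 fold changes for AOM-DSS WT against Control WT were 1.17 for Krt7, 5.11 for Krt13, 4.16 for Krt14 and 3.04 for Krt23. Without mouse 6 they were 0.85, 4.28, 3.60 and 2.10, and without Control WT mouse 1 they were 1.03, 4.64, 3.60 and 2.72. The log2 fold change of each stayed positive without any of these mice. The Krt23 call was lost without any 1 Control WT mouse and with no filter on low counts, and the Krt7 call without Control WT mouse 2 or 3. In AOM-DSS Claudin-2TG against AOM-DSS WT, the calls of Krt13 and Krt14 were lost without transgenic mouse 8. The Krt8 call against Control WT was lost in 7 of 14 alternatives, namely library size only, 9 mice in 1 fit and leaving out any 1 mouse but transgenic mouse 7, while its log2 fold change stayed at 0.31 to 0.54. The Krt23 call in that comparison was lost in 1 of 14, with 9 mice in 1 fit.

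Summed per length, type I keratins were at 2984 to 3385 RPKM and type II keratins at 2777 to 3016 RPKM in Control WT mice. The type I to type II ratio was 1.07 to 1.12 in Control WT and 1.07 to 1.12 in AOM-DSS WT mice. It was 0.988, 0.927 and 1.04 in AOM-DSS Claudin-2TG mice, below all others. Krt8 was 48.4% to 51.3% of all keratin RPKM in the transgenic mice, against 46.5% to 47.6% in Control WT and 45.6% to 47.5% in AOM-DSS WT mice. Krt19, a type I chain, was 33.0% to 33.1% in the transgenic mice, 31.9% to 35.7% in AOM-DSS WT mice and 35.6% to 36.4% in the controls. The 6 squamous or injury keratins together made up 0.715%, 0.650% and 0.590% of keratin RPKM in Control WT, 1.01%, 1.60% and 2.57% in AOM-DSS WT and 0.668%, 0.611% and 0.780% in AOM-DSS Claudin-2TG mice. Without Krt7 the share was 0.109% to 0.190%, 0.354% to 1.34% and 0.170% to 0.237% in the same order. Even in treated WT mice the 6 keratins were a small part of the keratin pool, and most of the remainder was simple keratin, 95.2% to 98.6%.

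**Figure D3:**
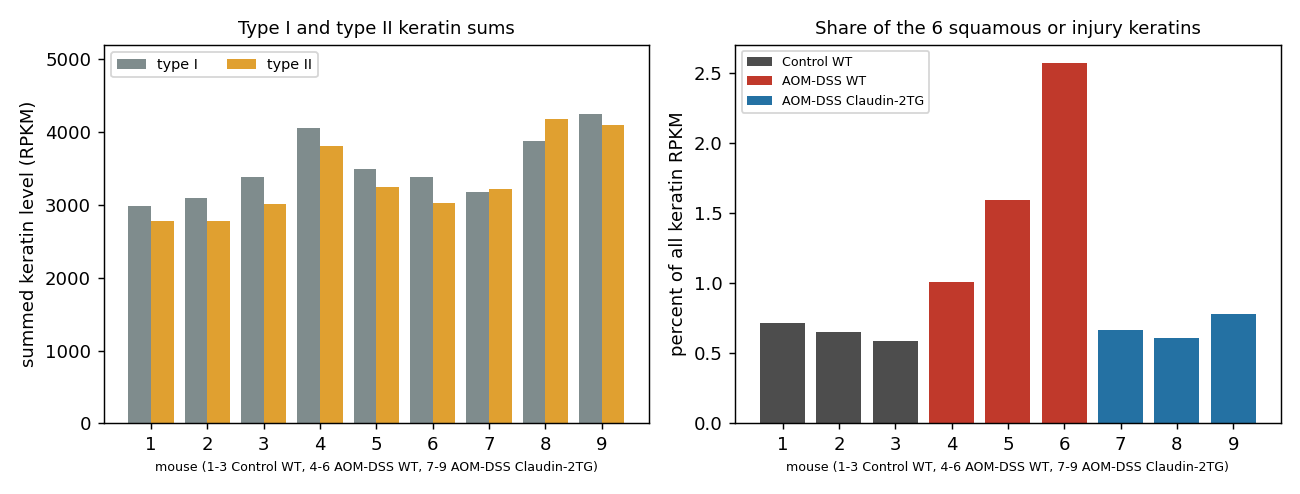
Left, summed RPKM of the 28 type I and 26 type II keratins in each mouse (y axis, from 0). Right, percent of all keratin RPKM held by the 6 squamous or injury keratins in each mouse; mice 4 to 6 (AOM-DSS WT) stand at 1.01% to 2.57% and all others at 0.590% to 0.780%.

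Krt13 and Krt14 were also set against the summed CPM of 12 genes of simple columnar epithelium, as a description. Krt13 was at 0.0285 to 0.0411 CPM per 1000 epithelial CPM in Control WT, 0.325 to 1.55 in AOM-DSS WT and 0.0168 to 0.0463 in AOM-DSS Claudin-2TG mice. Krt14 was at 0.0474 to 0.110, 0.659 to 1.95 and 0.112 to 0.205 on that scale. The epithelial sum itself was 15702 to 17274 CPM, 14658 to 18995 CPM and 17202 to 18952 CPM in the 3 groups, and these ranges overlapped. Lgals4 alone was at 5761 to 8991 CPM over all mice. The sum follows that gene most and does not show the others to be steady.

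Promoter windows of 200 bases before the transcript start were read from RefSeq (GRCm38.p6), which held one for 7 of the 10 keratins. 4 are shown because they belong to a simple keratin (Krt20), to keratins that were high in AOM-DSS WT mice (Krt7, Krt13) and to the neighbour of Krt13 whose change is tested next (Krt36). Capitals mark 3 sets of letters searched on both strands. They are TATAAA of the TATA box, GGGCGG of the GC box and TGANTCA, a loosened form of the AP-1 site. The AP-1 site has C or G at N, while the search took any base. Krt20 is chr11:99438154-99438353, Krt7 chr15:101412203-101412402, Krt13 chr11:100121567-100121766 and Krt36 chr11:100105627-100105826, each given 5′ to 3′ on the strand of its gene.
Krt20: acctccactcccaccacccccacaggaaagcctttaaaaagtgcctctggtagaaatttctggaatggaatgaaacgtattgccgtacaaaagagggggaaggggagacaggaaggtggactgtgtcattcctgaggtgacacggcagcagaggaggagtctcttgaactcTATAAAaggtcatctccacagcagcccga
Krt7: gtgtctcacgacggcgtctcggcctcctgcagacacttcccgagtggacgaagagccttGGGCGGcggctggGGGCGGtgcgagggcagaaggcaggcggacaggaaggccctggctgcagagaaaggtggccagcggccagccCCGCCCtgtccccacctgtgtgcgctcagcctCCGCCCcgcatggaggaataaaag
Krt13: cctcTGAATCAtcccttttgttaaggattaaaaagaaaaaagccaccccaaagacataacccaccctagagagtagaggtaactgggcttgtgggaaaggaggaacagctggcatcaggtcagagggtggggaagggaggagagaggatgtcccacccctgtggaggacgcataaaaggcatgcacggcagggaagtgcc
Krt36: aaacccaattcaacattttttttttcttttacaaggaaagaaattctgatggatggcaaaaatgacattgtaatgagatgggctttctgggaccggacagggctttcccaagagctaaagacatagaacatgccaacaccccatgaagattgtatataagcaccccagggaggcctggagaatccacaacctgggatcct
The Krt20 window holds TATAAA 29 bases before the start, which 9.96% of all 32851 windows of this length hold somewhere. The Krt7 window holds GGGCGG or its reverse complement 4 times, and 31.0% of all windows hold it at least once. The Krt13 window holds TGANTCA 196 bases before the start, against 5.48% of all windows with the loosened form. This match is TGAATCA, which is not the AP-1 site. A window at a further Krt13 start, not shown, holds TGACTCA 34 and 183 bases before that start. The Krt36 window holds none of these letters, nor CTTTGAT, the letters of a TCF/LEF site, which 2.45% of windows hold. The windows of Krt8, Krt14, Krt18 and Krt23 hold none of the 4 sets of letters, and that of Krt90, a further keratin that was high in AOM-DSS WT mice, holds CTTTGAT 9 bases before its start. A match describes the sequence and not a bound site.

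Of the other 44 keratins, 20 had more than 3 counts in at least 1 mouse and 10 could be tested in AOM-DSS WT against Control WT, of which 5 were called higher, against 8.04% of all genes, and 0 lower, with a median log2 fold change of 2.02 beside 0.02 over all genes. DESeq2 also called 5 higher and 0 lower. Krt90 and Krt4 had at most 2 and 3 counts in a Control WT mouse, so they passed the filter on low counts through the AOM-DSS WT mice. The count of 5 and the median rest in part on such genes and are a description. Krt36, a type I keratin of the hair class, was at 2.59, 1.45 and 2.45 CPM in Control WT, 17.8, 57.5 and 174 CPM in AOM-DSS WT and 4.21, 3.22 and 4.83 CPM in AOM-DSS Claudin-2TG mice. It rose by a log2 fold change of 5.26 ± 0.91 (adjusted p = 0.0185, edgeR) in AOM-DSS WT mice and was lower in AOM-DSS Claudin-2TG than in AOM-DSS WT mice by -4.35 ± 0.86 (adjusted p = 0.0287). All 3 groups were separate, and AOM-DSS WT mouse 6 held most of the signal. The first call was lost without any 1 of the Control WT mice, the second without AOM-DSS WT mouse 5, without any 1 of the transgenic mice or in lane 2 alone, and both without a filter on low counts, with adjusted p up to 0.0783 and 0.128.

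Krt84, a type II keratin of the hair class, was at 1.19, 0.801 and 1.25 CPM in Control WT, 15.8, 14.1 and 38.8 CPM in AOM-DSS WT and 3.73, 3.22 and 2.49 CPM in AOM-DSS Claudin-2TG mice. It rose in AOM-DSS WT (log2 fold change 4.39 ± 0.47, adjusted p = 0.00504) and in AOM-DSS Claudin-2TG mice (1.54 ± 0.29, adjusted p = 0.0105), and was lower in the transgenic than in the treated WT mice (-2.85 ± 0.42, adjusted p = 0.00999). The groups did not overlap. The last call was lost without transgenic mouse 8 or 9, with adjusted p up to 0.0663, and the call against Control WT was lost with all 9 mice in 1 fit (adjusted p = 0.0831).

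Krt90 had 0, 2 and 2 counts in Control WT and 1, 4 and 4 in AOM-DSS Claudin-2TG mice, and 184, 286 and 140 counts in AOM-DSS WT mice, or 9.56, 12.5 and 9.51 CPM. It was called in both comparisons with AOM-DSS WT (adjusted p = 0.000813 against Control WT and 0.000477 against AOM-DSS Claudin-2TG), under every one of the 13 alternatives that gave a value for each. Of its 50-base stretches 3.58% lie in Gm44393, a gene on the other strand, and the strand setting of the counts was not given in the sources used here.

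Krt4, the type II partner of Krt13, had 1, 2 and 3 counts in Control WT, 21, 20 and 100 in AOM-DSS WT and 2, 5 and 0 in AOM-DSS Claudin-2TG mice. It rose in AOM-DSS WT mice (adjusted p = 0.0267), a call that was lost without any 1 Control WT mouse (adjusted p up to 0.104). Against AOM-DSS WT, the adjusted p in AOM-DSS Claudin-2TG mice was 0.0576. Krt15, a type I keratin of basal stratified epithelium, was at 0.547, 0.851 and 0.430 CPM in Control WT, 2.29, 3.77 and 10.6 CPM in AOM-DSS WT and 1.31, 1.31 and 1.32 CPM in AOM-DSS Claudin-2TG mice. It rose by 3.18 ± 0.63 (adjusted p = 0.0206) in AOM-DSS WT mice, a call lost without any 1 Control WT mouse (adjusted p up to 0.0808).

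In AOM-DSS Claudin-2TG against AOM-DSS WT, 3 of 9 other keratins tested (Krt36, Krt84 and Krt90) were called lower and 0 higher. Over all genes 7.35% were called lower and 2.19% higher. The median log2 fold change was -2.06 beside 0.01 over all genes. Krt90 and Krt4, with at most 4 and 5 counts in a transgenic mouse, again passed the filter through the AOM-DSS WT mice. DESeq2 called 5 lower, and leaving out 1 mouse gave 1 (transgenic mouse 8 or 9) to 7 (AOM-DSS WT mouse 4). In AOM-DSS Claudin-2TG against Control WT, 1 of 7 (Krt84) was called higher and 0 lower, against 3.92% higher and 6.07% lower over all genes. The median was 0.47 beside 0.00. Krt10, Krt78, Krt83 and Krt87 were not called in these comparisons, and Krt222 was not called in AOM-DSS WT against Control WT and had too few counts for the other comparisons.

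The keratins that were high in AOM-DSS WT mice lay side by side in part. On chromosome 11 Krt35, Krt36, Krt13, Krt15 and Krt19 lie within 56.5 kb (chr11:100092193-100148665), with Gm12347 between Krt36 and Krt13. From Control WT to AOM-DSS WT, mean CPM went from 0.0477 to 1.52 for Krt35, from 2.16 to 83.1 for Krt36, from 0.531 to 14.5 for Krt13 and from 0.609 to 5.55 for Krt15. The next gene, Krt19, was at 4018 and 4369 CPM. On chromosome 15 Krt84 and Krt90 lie within 37.9 kb (chr15:101525026-101562950), with Krt82, at 1 count in all mice together, between them. Krt83, beside Krt84, was at 6.04, 5.54 and 8.13 CPM in Control WT, AOM-DSS WT and AOM-DSS Claudin-2TG mice. Krt6a, a type II keratin of wounded stratified epithelium, had 0, 55 and 1 counts over these groups and was not tested.

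**Figure D4:**
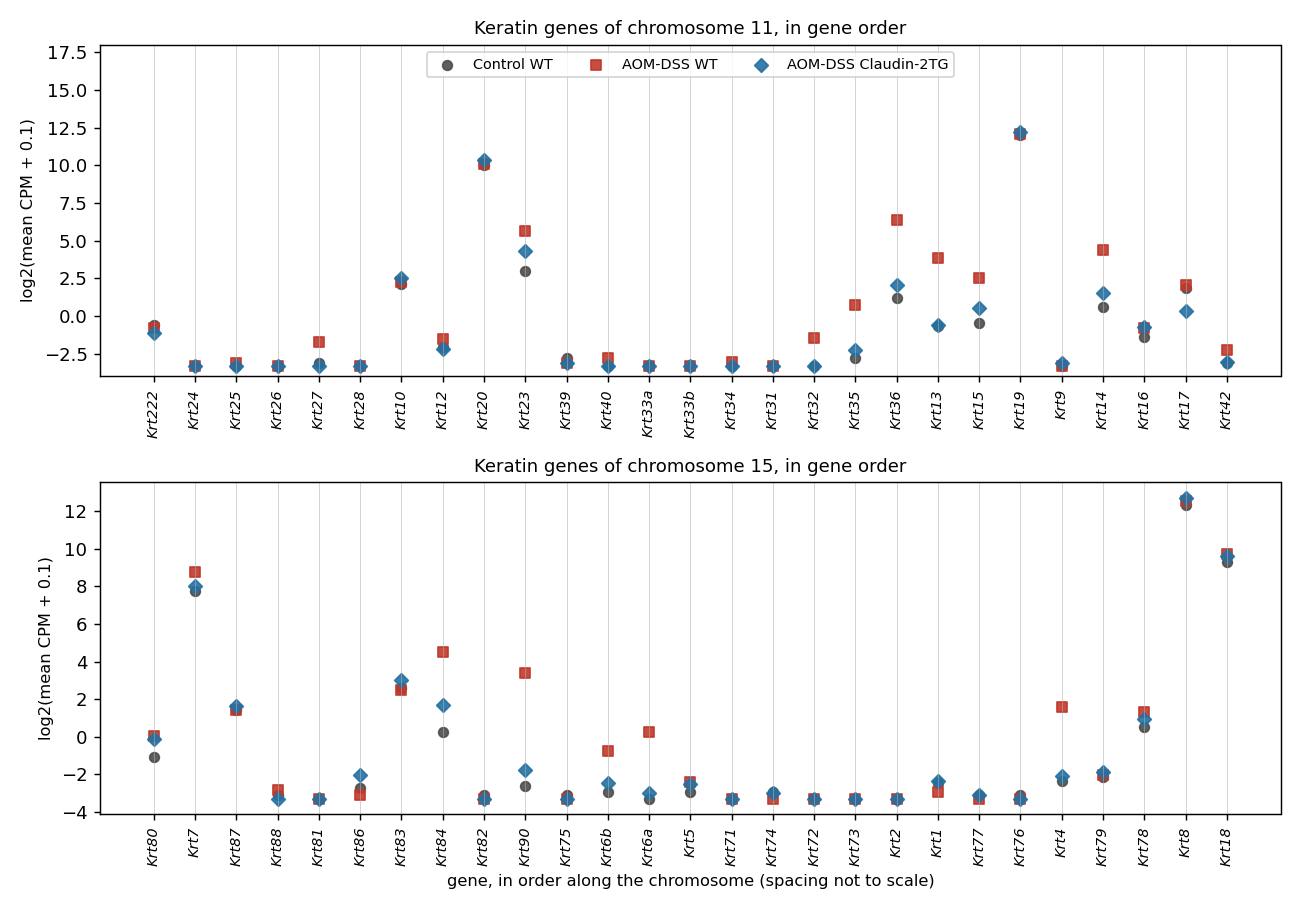
Mean level of each keratin in 3 mice per group, as log2(CPM + 0.1) (y axis), in gene order along chromosome 11 (top) and chromosome 15 (bottom). The run Krt35, Krt36, Krt13 and Krt15 lies higher in AOM-DSS WT (1.52 to 83.1 CPM) than in both other groups, next to Krt19 at 4018 to 4659 CPM in all 3.

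Of 25 listed genes of squamous differentiation 12 were tested in AOM-DSS WT against Control WT, and 2 were called higher and 1 lower. Over all genes 8.04% were called higher and 6.92% lower. The median log2 fold change was 0.36 beside 0.02. At an unadjusted p under 0.05 there were 8, and DESeq2 called 5 higher and 1 lower. Ly6d, a surface protein of squamous and lymphoid cells, was at 3.68, 0.901 and 0.430 CPM in Control WT, 12.5, 39.2 and 105 CPM in AOM-DSS WT and 1.93, 2.11 and 0.439 CPM in AOM-DSS Claudin-2TG mice. It rose by 4.99 ± 1.04 (adjusted p = 0.0280) and was lower in transgenic than in treated WT mice by -5.07 ± 0.94 (adjusted p = 0.0237), and each call was lost in 6 of 14 and 5 of 13 alternatives. Anxa8, an annexin of stratified epithelium, rose by 2.17 ± 0.24 (adjusted p = 0.00494), from 112 ± 27.9 CPM to 499 ± 116 CPM, and was called under all 14 alternatives. Tgm3, a transglutaminase of cornified layers that the colon also expresses, fell by 1.94 on the log2 scale (adjusted p = 0.0281), from 2576 ± 657 to 672 ± 381 CPM, a call lost in 5 of 14 alternatives, among them those without any 1 Control WT mouse. Ivl, Flg and Cnfn had 0 counts in every mouse. Trp63, the transcription factor of basal squamous cells, had 3 counts in AOM-DSS WT mouse 5, 1 in mouse 6 and 0 in the other 7 mice. Other listed genes were present. From Control WT to AOM-DSS WT, mean CPM went from 0.261 to 1.93 for Tgm1, from 2.65 to 5.43 for Cdsn and from 8.79 to 10.7 for Sprr1a. It went from 10.4 to 6.82 for Scel and from 2.39 to 1.16 for Dmkn, and edgeR called none of them there. The word squamous here names the usual site of these keratins and not a cell type shown in this tissue. Of the 12 tested in AOM-DSS Claudin-2TG against AOM-DSS WT, edgeR called Ly6d alone, 5 had an unadjusted p under 0.05, and DESeq2 called 1 higher and 3 lower. Against Control WT, Sbsn was called higher and Dmkn lower, calls lost in 8 of 11 and 7 of 14 alternatives, both of them without any 1 Control WT mouse, without transgenic mouse 8 and with 9 mice in 1 fit.

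Keratins anchor to hemidesmosomes at the base of the cell and to desmosomes between cells. Of 9 genes of hemidesmosomes and their basal lamina, 5 were called higher in AOM-DSS WT than in Control WT mice and 0 lower. Over all genes 8.04% were called higher and 6.92% lower. The median log2 fold change was 0.81 beside 0.02. DESeq2 called 7 higher, and leaving out 1 mouse gave 0 (Control WT mouse 3, 7 at an unadjusted p under 0.05) to 7 (AOM-DSS WT mouse 4). Lama3, a laminin alpha chain, rose by 1.37 ± 0.26 (adjusted p = 0.0189), from 67.1 ± 19.1 CPM to 172 ± 49.8 CPM. Lamb3, a laminin beta chain, rose by 0.83 ± 0.15 (adjusted p = 0.0163), and the integrin Itga6 by 0.81 ± 0.18 (adjusted p = 0.0265). These 3 calls were each lost without at least 1 Control WT mouse, with adjusted p up to 0.0931. Lamb3 was lower in AOM-DSS Claudin-2TG than in AOM-DSS WT mice (-0.58 ± 0.15, adjusted p = 0.0424), 1 of 8 tested where 7.35% of all genes were called lower, with a median of -0.52 beside 0.01. That call was lost in 5 of 14 alternatives, without AOM-DSS WT mouse 5 or 6 or without any 1 transgenic mouse, with adjusted p up to 0.168. At an unadjusted p under 0.05 there were 6 of 8, and DESeq2 called 5 lower. Between AOM-DSS Claudin-2TG and Control WT mice, 0 of 9 were called by edgeR and by DESeq2, and 2 had an unadjusted p under 0.05. Of the 14 desmosome and plakin genes 11 were tested. Pkp3 (plakophilin 3, 0.71 ± 0.10, adjusted p = 0.00946) and Ppl (periplakin, 0.73 ± 0.15, adjusted p = 0.0205) were called higher in AOM-DSS WT mice, against 8.04% of all genes. Dsg3, not tested, had 0, 0 and 1 counts in Control WT, 9, 58 and 37 in AOM-DSS WT and 0, 2 and 0 in AOM-DSS Claudin-2TG mice. Dsc3, not tested, had 0, 1 and 2, 17, 12 and 3, and 1, 1 and 1 counts in the same order. Dsc1, not tested, had at most 2 counts in a mouse. Ppl was lower in AOM-DSS Claudin-2TG (8.55 ± 0.994 CPM) than in AOM-DSS WT mice (17.0 ± 1.84 CPM, adjusted p = 0.0136), the only one of 11 that edgeR called there, while DESeq2 called 3 lower and 3 had an unadjusted p under 0.05. Both calls of Ppl were lost in 4 of 14 alternatives, and that of Pkp3 without Control WT mouse 2.

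Among 18 other intermediate filament genes, 17 were tested in AOM-DSS WT against Control WT, with 2 called higher and 1 lower, against 8.04% and 6.92% of all genes. The median log2 fold change was -0.45 beside 0.02. Leaving out AOM-DSS WT mouse 4 gave 3 higher and 5 lower. Without AOM-DSS WT mouse 6 or any 1 Control WT mouse it was 1 higher and 0 lower. Vim, the filament protein of mesenchymal cells and leukocytes, was at 52.0, 46.7 and 59.4 CPM in Control WT, 134, 160 and 185 CPM in AOM-DSS WT and 33.1, 27.0 and 29.1 CPM in AOM-DSS Claudin-2TG mice. The 3 groups were apart. Vim rose by 1.61 ± 0.16 in AOM-DSS WT against Control WT (adjusted p = 0.00293), was lower by -2.43 ± 0.16 in AOM-DSS Claudin-2TG against AOM-DSS WT (adjusted p = 0.000477) and by -0.82 ± 0.12 against Control WT (adjusted p = 0.00448), under all alternatives. Iffo2 rose (0.87 ± 0.19, adjusted p = 0.0250), and Prph, the filament of enteric neurons, was lower in AOM-DSS WT than in Control WT mice (-2.02 ± 0.48, adjusted p = 0.0336), and both calls were lost without any 1 Control WT mouse. Nes was lower in AOM-DSS Claudin-2TG than in AOM-DSS WT mice (-1.74 ± 0.46, adjusted p = 0.0491), a call lost in 6 of 13 alternatives. Against Control WT, 5 of 17 were called lower in AOM-DSS Claudin-2TG mice, but 3 without transgenic mouse 9 or Control WT mouse 3 and 2 with 9 mice in 1 fit.

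**Figure D5:**
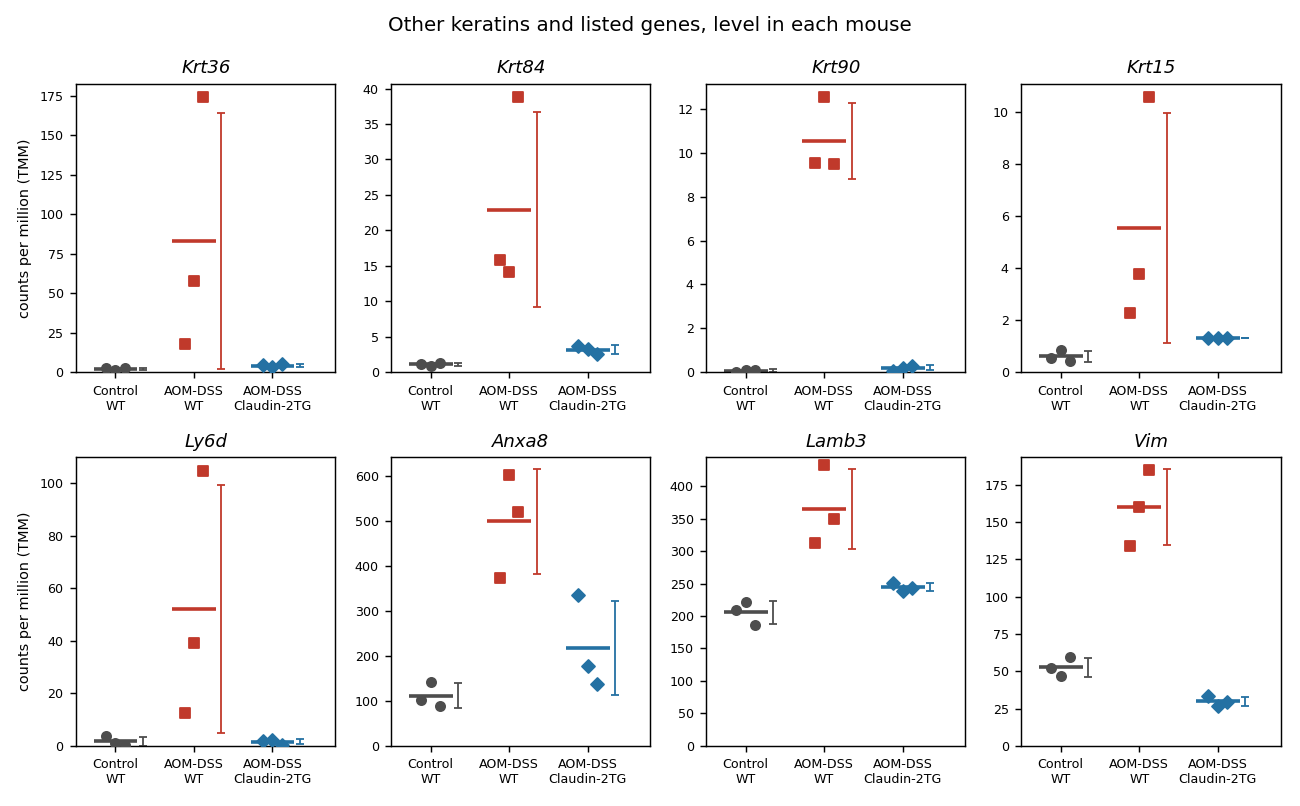
Level of 4 other keratins and of Ly6d, Anxa8, Lamb3 and Vim in each mouse, in CPM on TMM-scaled libraries (y axis, from 0), by group (x axis, 3 mice each). Points are mice, horizontal lines are group means and bars are ± 1 SD; AOM-DSS WT mice are highest for each of the 8 genes, for example 134 to 185 CPM of Vim against 27.0 to 59.4 CPM in the other mice.

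Of the 12 genes of simple columnar epithelium edgeR called 0 in AOM-DSS WT against Control WT, 4 had an unadjusted p under 0.05, DESeq2 called 1 higher and 1 lower, and the median was -0.07 beside 0.02. Epcam was at 2323 ± 85.5, 2585 ± 211 and 2515 ± 94.5 CPM in Control WT, AOM-DSS WT and AOM-DSS Claudin-2TG mice, Cdh1 at 1616 ± 87.9, 1231 ± 216 and 1484 ± 107 CPM, and Vil1 at 766 ± 47.8, 698 ± 90.1 and 765 ± 86.1 CPM. Hnf4a, an enterocyte transcription factor, was at 915, 629 and 976 CPM on average in the same order (-0.53 ± 0.16, adjusted p = 0.0567, in AOM-DSS WT against Control WT). It was higher in AOM-DSS Claudin-2TG than in AOM-DSS WT mice (0.63 ± 0.16, adjusted p = 0.0406), the only one of 12 that edgeR called there, and the call was lost in 5 of 14 alternatives. In that comparison 5 of 12 had an unadjusted p under 0.05, DESeq2 called 2 higher, and the median was 0.26 beside 0.01. Cdx1, an intestinal homeobox factor, went from 565 to 454 CPM from Control WT to AOM-DSS WT mice and stood at 661 CPM in AOM-DSS Claudin-2TG mice, and was not called by edgeR in any comparison (adjusted p = 0.122, 0.0641 and 0.226). Against Control WT, Cldn7 and Phgr1 were called higher in AOM-DSS Claudin-2TG mice. The Cldn7 call was lost in 13 of 14 alternatives, all but DESeq2, and that of Phgr1 in 1, with 9 mice in 1 fit.

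Markers of other cell types were followed in the same fits. Of 12 leukocyte genes 6 were called higher in AOM-DSS WT than in Control WT mice and 0 lower (median log2 fold change 1.75), and 6 of 11 were called lower in AOM-DSS Claudin-2TG than in AOM-DSS WT mice and 0 higher (median -1.94). Over all genes 8.04% were called higher in the first comparison and 7.35% lower in the second. DESeq2 called 8 higher and 9 lower in these comparisons. The counts moved with single mice: with 1 mouse left out they ran from 0 (Control WT mouse 3, 9 at an unadjusted p under 0.05) to 9 (AOM-DSS WT mouse 4) higher, and from 1 (transgenic mouse 8) to 10 (AOM-DSS WT mouse 4) lower. Their summed level was 121 to 323 CPM in Control WT, 440 to 1950 CPM in AOM-DSS WT and 362 to 1018 CPM in AOM-DSS Claudin-2TG mice. Cd74, the invariant chain of MHC class II, made up most of that sum, at 146, 74.6 and 260 CPM in Control WT, 264, 1683 and 1649 CPM in AOM-DSS WT and 299, 962 and 455 CPM in AOM-DSS Claudin-2TG mice, and was not called by edgeR (adjusted p = 0.0516 in AOM-DSS WT against Control WT). Between AOM-DSS Claudin-2TG and Control WT mice 0 of 10 leukocyte genes were called by edgeR and by DESeq2, 1 had an unadjusted p under 0.05, and the median was -0.26 beside 0.00. Ptprc, the pan-leukocyte CD45, was at 8.33 ± 3.27, 20.6 ± 3.44 and 5.88 ± 1.62 CPM. Coro1a rose by 2.39 ± 0.39 (adjusted p = 0.0157) in AOM-DSS WT mice and was lower by -2.44 ± 0.29 (adjusted p = 0.00680) in AOM-DSS Claudin-2TG against AOM-DSS WT. Lyz2, lysozyme of myeloid cells, rose by 1.40 ± 0.36 (adjusted p = 0.0425) and was lower by -2.25 ± 0.40 (adjusted p = 0.0188) in the same comparisons, calls lost in 6 and 5 of 14 alternatives. S100a8 and S100a9, calgranulins of neutrophils, were called higher in AOM-DSS WT mice (adjusted p = 0.0327 and 0.0342). Their counts were 1, 0 and 6 and 5, 0 and 7 in Control WT mice, and 11, 418 and 200 and 15, 500 and 178 in AOM-DSS WT mice. S100a9 was also called lower in AOM-DSS Claudin-2TG mice, at 2, 3 and 2 counts, than in AOM-DSS WT mice (adjusted p = 0.0386), where S100a8 could not be tested. Each of these 3 calls was lost in 6 of 11 alternatives.

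Msln, which marks mesothelium and some epithelia, was at 5.67, 2.60 and 2.49 CPM in Control WT, 11.4, 17.2 and 30.4 CPM in AOM-DSS WT and 0.207, 3.07 and 1.90 CPM in AOM-DSS Claudin-2TG mice. It rose by 2.46 ± 0.46 (adjusted p = 0.0189) in AOM-DSS WT mice and was lower by -3.46 ± 0.73 (adjusted p = 0.0312) in the transgenic mice against them, and was the only gene that edgeR called among the 5 and 4 mesothelial genes tested. The calls of Msln were lost in 2 of 14 and 5 of 13 alternatives, and the first of Coro1a without Control WT mouse 3. The medians of the mesothelial genes, -1.04 beside 0.02 and 0.41 beside 0.01, had the other sign from Msln. In AOM-DSS WT against Control WT, the others tested were at -2.09 ± 0.79 (Upk3b), -1.29 ± 0.49 (Upk1b), -1.04 ± 0.62 (Lrrn4) and -0.53 ± 0.37 (Gpm6a), and edgeR called none of these 4, of which 2 had an unadjusted p under 0.05. DESeq2 called Upk3b lower, and so did edgeR without AOM-DSS WT mouse 5. The summed mesothelial level, most of it Msln in AOM-DSS WT mice, was 10.2 to 17.0, 14.1 to 32.2 and 1.59 to 13.1 CPM.

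Of 8 endothelial and fibroblast genes, 0 were called in AOM-DSS WT against Control WT by edgeR (3 at an unadjusted p under 0.05, 2 higher by DESeq2), and 3 were called lower in AOM-DSS Claudin-2TG than in AOM-DSS WT mice, namely Cdh5 (-1.77 ± 0.35, adjusted p = 0.0180), Col3a1 (-1.74 ± 0.39, adjusted p = 0.0353) and Pecam1 (-0.87 ± 0.23, adjusted p = 0.0459). Over all genes 7.35% were called lower in the latter comparison. The medians were 0.78 beside 0.02 and -1.58 beside 0.01. These 3 calls were lost in 4, 6 and 7 of 14 alternatives, each among them without AOM-DSS WT mouse 5 and without any 1 transgenic mouse. DESeq2 called 8 of 8 lower there. In AOM-DSS Claudin-2TG against Control WT, edgeR called 3 of 8 lower and 0 higher, against 6.07% and 3.92% of all genes. The median was -0.89 beside 0.00. DESeq2 called 5 lower, and edgeR called 1 without transgenic mouse 8. The summed level of the 8 genes was 263 to 364, 406 to 934 and 163 to 226 CPM in Control WT, AOM-DSS WT and AOM-DSS Claudin-2TG mice. Col1a1 was at 54.5 ± 13.7, 87.3 ± 49.1 and 25.6 ± 8.25 CPM. Of 9 smooth muscle genes, 0 were called in either comparison with AOM-DSS WT by edgeR, with 4 and 0 at an unadjusted p under 0.05 and 4 and 0 called lower by DESeq2, and 5 were called lower in AOM-DSS Claudin-2TG than in Control WT mice. The last count, against 6.07% of all genes, was 9 by DESeq2, 1 with 9 mice in 1 fit, 3 without Control WT mouse 1 or 3 or transgenic mouse 7, and 8 without Control WT mouse 2. In AOM-DSS WT against Control WT, edgeR called 7 lower without AOM-DSS WT mouse 4 and 2 with 9 mice in 1 fit. Without that mouse it called 1 higher in AOM-DSS Claudin-2TG against AOM-DSS WT. The medians of the 9 genes were -0.81 beside 0.02 for AOM-DSS WT against Control WT and -0.46 beside 0.01 for AOM-DSS Claudin-2TG against AOM-DSS WT. Myh11 was at 467 ± 97.7, 270 ± 166 and 217 ± 57.5 CPM, and AOM-DSS WT mouse 4, at 460 CPM, was within the control range. Of 12 skeletal muscle genes 4 were tested and 1 was called higher in AOM-DSS WT mice, Tnni2, a troponin of fast muscle, at 2.60 CPM on average against 0.240 CPM in Control WT (3.41 ± 0.61, adjusted p = 0.0160, lost in 2 of 13 alternatives), while Acta1 was at 5.22 ± 0.955, 8.06 ± 2.70 and 8.61 ± 4.93 CPM. The part of these cell types in the keratin differences was not tested.

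Genes with the most similar profile were looked up among 13906 genes with a mean of at least 1 CPM, by Pearson's r of log2(CPM + 0.5) over 9 mice with the mean standardized profile of each keratin class. The 9 mice form 3 groups, so r reflects the groups and is a description. For the squamous or injury keratins (5 with a mean of at least 1 CPM) the first 5 were Rnf183 (r = 0.992), Tmsb4x (0.989), Evx1os (0.989), Glis2 (0.986) and Lpcat4 (0.985). Glis2, a zinc finger transcription factor, was at 2.25 ± 0.499 CPM in Control WT, 6.82 ± 2.30 CPM in AOM-DSS WT and 2.15 ± 0.545 CPM in AOM-DSS Claudin-2TG mice. Tmsb4x, the actin-binding thymosin beta 4, was at 386 ± 42.7, 813 ± 147 and 418 ± 51.6 CPM. For the 4 simple keratins the first 5 were Zfp958 (r = 0.938), Nle1 (0.937), 1700007L15Rik (0.935), 4930453N24Rik (0.930) and Zfp932 (0.924). Nle1, a factor of ribosome assembly, was at 12.6 ± 0.432, 16.3 ± 3.23 and 17.2 ± 2.42 CPM.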

How the data were processed

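The deposited table holds whole-number counts per gene for 9 colon libraries, each in 2 lanes, made by the authors with featureCounts. The submitters' notes name HISAT2, Subread and GRCm38, while the study's methods name TopHat2 and DESeq2. Versions and the strand setting were not given in the sources used here. Symbols were found for 47224 of 47729 identifiers. The 10 keratins and the gene lists were chosen with earlier results of these data known.

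Lanes were added up, and groups came from the genotype and treatment labels. The protocol text names AOM and DSS for the controls too, so the treatment label was used. Each pair of groups (3 against 3 mice) went into an edgeR 4.0.16 fit under R 4.3.3 (TMM, filterByExpr with minimum count 10, two-sided quasi-likelihood test, Benjamini-Hochberg adjustment over all genes tested). Log2 fold changes are given with SE, and genes were called at an adjusted p under 0.05. CPM and RPKM used TMM factors over 9 mice and the gene lengths deposited beside the counts. The fit was checked on simulated counts.

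Named genes are the 10 keratins, up to 10 other keratins called, up to 4 genes called per list by size, set defining markers, Cldn2 and the 5 most similar genes per class. A listed gene is left unreported. Xist, Krt5, Krt6a, Krt35, Krt82, Krt8-ps, Gm12347, Flg, Cnfn, Sbsn, Dmkn, Tgm1, Cdsn, Sprr1a, Scel, Dsg3, Dsc3, Dsc1, Lgals4, Cldn7, Phgr1, Cdx1, Cd74, Upk3b, Upk1b, Lrrn4 and Gpm6a were named after their values were seen. Promoters are from RefSeq (GRCm38.p6), and shared 50-base stretches from GENCODE M21 transcripts. Alternatives were DESeq2 1.42.0, library size only, upper-quartile scaling, no filter, at least 10 counts in every mouse, 9 mice in 1 fit, each lane alone and leaving out each mouse. Floors of 3 counts cover counting error only.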

Additional observations from a re-analysis of the deposited data

How the results depend on the processing

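The number of genes called depended on single mice. Leaving out 1 mouse at a time gave 135 to 4080 genes for AOM-DSS WT against Control WT (2310 with all), 58 to 2894 for AOM-DSS Claudin-2TG against AOM-DSS WT (1421) and 525 to 1383 for AOM-DSS Claudin-2TG against Control WT (1501). The highest of the first pair came without AOM-DSS WT mouse 4, and the lowest without Control WT mouse 2 and transgenic mouse 8. In the same order, the 10 keratins gave 2 to 4, 0 to 4 and 1 to 3 calls, the other keratins 2 to 7, 1 to 7 and 1 to 1, and the listed genes 3 to 48, 2 to 38 and 10 to 19. The 0 (edgeR, without transgenic mouse 8) had 3 keratins at an unadjusted p under 0.05, 58 genes were called there in all, and DESeq2 on all mice called 5 of the 10.

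For AOM-DSS Claudin-2TG against AOM-DSS WT, at least 10 counts in every mouse left 908 genes and 1 of the 10 keratins, a setting that tests fewer genes. With 9 mice in 1 fit 2136 genes, 5 other keratins and 32 listed genes were called (3 and 16 in the pairwise fit), and DESeq2 called 2072 genes, 5 of the 10 keratins (2), 5 other keratins and 35 listed genes. For AOM-DSS WT against Control WT, DESeq2 called 37 listed genes (21) and the filter of 10 counts left 3 other keratins (5). For AOM-DSS Claudin-2TG against Control WT, no filter gave 2567 genes, 5 of the 10 keratins (2), 2 other keratins (1) and 32 listed genes (18). With 9 mice in 1 fit, edgeR called 445 genes, 0 of the 10 keratins (5 at an unadjusted p under 0.05, 2 by DESeq2), 0 other keratins (2 at an unadjusted p under 0.05, 1 by DESeq2) and 5 listed genes, and library size only left 1586 genes and 1 of the 10 keratins. The cause of these shifts was not tested. With library size in place of TMM, mean Krt7 in Control WT was 31.4 RPKM, beyond its SD, and the other 29 mean levels moved by less than their SD.

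In the comparison in which it was called, no log2 fold change of the 10 keratins changed sign under any alternative. That of Krt13 for AOM-DSS Claudin-2TG against Control WT, where it could not be fitted with all mice, ran from -0.47 to 0.34 over 7 settings. Those of Krt17 and Krt80 against Control WT moved by more than 1 SD without Control WT mouse 1. No paired analysis was possible because the groups share no mouse number. Low counts limit Krt80, Krt4, Krt90 and Krt35.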
